A study of Homo sapiens with 14 samples.

Results

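The pyruvate dehydrogenase complex, its kinases and its phosphatases were followed as 10 genes, chosen by symbol and known function, among the 23106 gene symbols counted in the series. They were the kinases PDK1, PDK2, PDK3 and PDK4, the phosphatase catalytic subunits PDP1 and PDP2, and the complex subunits PDHA1, PDHB, PDHX and DLAT. All 10 had a row in every library and passed the filter on low counts in each comparison. Polyadenylated RNA had been sequenced from PC3, a human prostate carcinoma line, and HCT116, a human colorectal carcinoma line. Cells of each line were kept at 21% O2 (normoxia) or were moved to 0.5% O2 for 16 h (hypoxia), with no genetic change and no agent other than oxygen named in the labels. There were 4 libraries per condition in PC3 and 3 in HCT116, which makes 14 in all. Each line is a single culture lineage, so a difference between PC3 and HCT116 is a difference between these cultures and not between prostate and colon. The study's methods also name a different growth medium for each line (DMEM/Hams for PC3, McCoy's for HCT116). Line and medium therefore cannot be told apart in any comparison of the lines or of their responses.

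The pyruvate dehydrogenase complex sits in the mitochondrial matrix and turns pyruvate from glycolysis into acetyl-CoA, the fuel of the TCA cycle. Its first enzyme, E1, is made of PDHA1 and PDHB, its core E2 of DLAT, and PDHX is the protein that ties the third enzyme, DLD, to that core. PDK1 to PDK4 phosphorylate PDHA1 and switch the complex off, PDP1 and PDP2 remove the phosphate and switch it on again, and PDK1 is a long-known target of the hypoxia-inducible factors (HIF). PDK1 here is pyruvate dehydrogenase kinase and not the signalling kinase PDPK1, which shares the abbreviation.

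The stretches just before the transcription starts of the 4 kinases are shown because the kinases parted in hypoxia and because HIF binds the core letters ACGTG or GCGTG. Each run is the 250 bases before a RefSeq start (GRCh38.p14), read in the direction of the gene, with every ACGTG or GCGTG in capitals, on either strand (a match on the other strand reads CACGT or CACGC).
PDK1, chr2:172555840-172556089, plus strand: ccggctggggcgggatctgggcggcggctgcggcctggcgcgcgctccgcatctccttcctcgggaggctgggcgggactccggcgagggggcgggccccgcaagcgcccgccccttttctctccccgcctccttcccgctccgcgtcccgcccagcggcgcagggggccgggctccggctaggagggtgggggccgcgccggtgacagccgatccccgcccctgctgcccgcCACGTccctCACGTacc
PDK3, chrX:24465036-24465285, plus strand: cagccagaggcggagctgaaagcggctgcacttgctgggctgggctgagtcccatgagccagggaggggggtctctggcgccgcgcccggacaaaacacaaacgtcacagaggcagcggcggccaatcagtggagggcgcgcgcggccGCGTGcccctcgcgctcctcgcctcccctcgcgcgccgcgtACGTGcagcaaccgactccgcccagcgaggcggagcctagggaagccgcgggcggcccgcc
PDK2, chr17:50095101-50095350, plus strand: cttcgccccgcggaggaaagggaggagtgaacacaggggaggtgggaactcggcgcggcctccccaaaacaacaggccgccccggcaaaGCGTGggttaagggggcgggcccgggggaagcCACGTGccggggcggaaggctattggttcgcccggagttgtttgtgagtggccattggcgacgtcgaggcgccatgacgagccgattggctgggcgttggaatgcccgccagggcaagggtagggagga
PDK4, chr7:95596517-95596766, minus strand: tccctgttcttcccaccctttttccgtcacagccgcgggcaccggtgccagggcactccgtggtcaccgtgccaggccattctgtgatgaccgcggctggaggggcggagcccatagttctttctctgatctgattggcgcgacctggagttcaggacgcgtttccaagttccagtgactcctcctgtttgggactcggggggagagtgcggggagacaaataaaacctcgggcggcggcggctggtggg
The PDK1 window held ACGTG 2 times, both on the other strand, 17 to 13 and 8 to 4 bases before the start, and 79.6% of its bases were G or C. The PDK3 window held 1 ACGTG, 61 to 57 bases before the start, and 1 GCGTG, 102 to 98 bases before it. In the PDK2 window the palindrome CACGTG counts as an ACGTG on each strand, so its 3 matches cover 2 places. The PDK4 window held neither form. RefSeq lists a further start for PDK1 and 2 further starts for PDK2, and none of those windows held a match. Of 35116 windows of the same length in the RefSeq table, 18.5% held ACGTG, 32.2% held GCGTG, 43.2% held either and 7.52% held 2 or more ACGTG. In that last share a single CACGTG also counts as 2, and 6.34% of the windows held CACGTG. It is therefore not the share with ACGTG at 2 separate places, as in the PDK1 window, which was not counted. Windows were found for 9 of the 10 genes (13 starts in all, 8 with a match). PDHB had 6 matches, PDP2, PDHA1 and DLAT had 3 each, and PDHX had 2 at 1 start and none at the other. In PDHB and in PDP2, as in PDK2, 2 of the matches are the strands of 1 CACGTG. A match is a description of the letters and not a binding site.

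The libraries held 71228454 to 150630928 counted reads, with the PC3 hypoxia libraries the shallowest (71228454 to 96159803). At these depths 3 counts, the upper limit that a count of 0 allows, came to 0.0199 to 0.0421 CPM (counts scaled to the size of the library, the unit of all levels here), which covers counting error only. Of 10 hypoxia check genes chosen as known HIF targets, all 10 rose in each line. All 4 epithelial markers were above 1 CPM in every group. Of the prostate markers, KLK2, KLK3 and FOLH1 were near 0 in PC3 while HOXB13, TMPRSS2 and STEAP1 were measured. Of the colon markers, CDX2 was measured in HCT116 and CDX1, VIL1, LGR5 and CDH17 were near 0. Of 5 fibroblast, 5 immune and 4 endothelial markers, PTPRC, CD3E, DCN and CDH5 were all under 1 CPM in every group. Of those lists, 1 to 2 genes reached 1 CPM in PC3 and 0 to 1 in HCT116 (CD68 reached 52.5 CPM and COL1A1 12.4 CPM in the highest library), and the part of such RNA in the results was not tested. PC3 replicate 1 stood apart from the other PC3 replicates in both conditions, and in hypoxia replicate 4 was about as far from replicates 2 and 3 (chi-square per gene 108.2 and 147.5) as replicate 1 was (119.9 and 103.3), while replicates 2 and 3 were close (15.9). In HCT116 normoxia, replicate 3 was farther from replicates 1 and 2 (118.5 and 87.8) than these were from each other (22.9). Values without PC3 replicate 1, or without PC3 hypoxia replicate 4, are given where they differ. In bulk RNA, fewer cells with a transcript and less of it per cell cannot be told apart.

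PDK1 rose in hypoxia in both lines and rose more in HCT116. In PC3, PDK1 was at 55.1, 54.5, 55.9 and 54.2 CPM in normoxia (replicates 1 to 4) and at 71.9, 93.8, 86.4 and 107.9 CPM in hypoxia. In HCT116 it was at 12.1, 13.1 and 11.9 CPM in normoxia (replicates 1 to 3) and at 109.3, 103.7 and 78.7 CPM in hypoxia. Every hypoxia library lay above every normoxia library of its line, and the 3 normoxic HCT116 libraries were the lowest of the 14. The rise was 1.64-fold in PC3 (log2 fold change 0.72, SE 0.11, adjusted p = 0.0040, edgeR) and 7.96-fold in HCT116 (2.99, SE 0.12, adjusted p = 2.31e-08). By log2 fold change PDK1 ranked 394 of 14309 genes in PC3 and 19 of 14120 in HCT116. The 2 lines ended at 90.0 ± 15.02 CPM (SD, n = 4) and 97.2 ± 16.3 CPM (SD, n = 3).

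PDK3, the other kinase that rose in both lines, was low in normoxia. It was at 12.2, 15.3, 15.3 and 15.4 CPM in normoxic PC3 and at 18.1, 29.4, 24.5 and 32.2 CPM in hypoxic PC3. In HCT116 it went from 13.1, 14.8 and 12.01 CPM to 37.6, 41.0 and 37.9 CPM. The conditions did not overlap in either line, and the normoxic libraries of the lines overlapped each other. The rise was 1.79-fold in PC3 (log2 0.84, SE 0.16, adjusted p = 0.0116, edgeR) and 2.95-fold in HCT116 (1.56, SE 0.08, adjusted p = 2.18e-07). PC3 replicate 1 was the lowest PC3 library for PDK3 in each condition. PC3 hypoxia replicate 4 was the highest for both kinases, and without it the changes were 0.62 (PDK1) and 0.73 (PDK3) and passed. Without the libraries of replicate 1 the change in PC3 was 0.91 on the log2 scale (adjusted p = 0.0022, edgeR) for PDK3 and 0.81 (adjusted p = 0.0021) for PDK1.

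PDK2, the broadly expressed kinase of the family, did not pass the test in either line. It was at 40.8, 39.7, 41.9 and 38.2 CPM in normoxic PC3 and 38.5, 36.8, 37.5 and 40.8 CPM in hypoxic PC3, which overlap. In HCT116 it was at 33.4, 31.4 and 29.9 CPM in normoxia and at 33.9, 33.9 and 34.8 CPM in hypoxia. The 3 hypoxic HCT116 libraries lay above the normoxic ones by a margin smaller than their spread. The log2 fold change was -0.06 in PC3 (95% interval -0.20 to 0.09, adjusted p = 0.599, edgeR) and 0.13 in HCT116 (-0.01 to 0.27, adjusted p = 0.144).

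PDK4, the kinase best known from fasting and from fat oxidation, was the least counted of the 10 genes, with 131 to 382 reads per library. It was at 2.78, 2.43, 2.57 and 3.16 CPM in normoxic PC3 and at 3.57, 3.21, 2.37 and 2.34 CPM in hypoxic PC3. In HCT116 it was at 1.11, 1.41 and 0.98 CPM in normoxia and at 1.22, 2.20 and 1.33 CPM in hypoxia. Both pairs of conditions overlapped. The log2 fold change was 0.08 in PC3 (95% interval -0.31 to 0.47, adjusted p = 0.812, edgeR) and 0.46 in HCT116 (-0.07 to 0.98, adjusted p = 0.183). Both intervals hold changes of either sign, and a rise as large as that of PDK3 in the same line lies above each. With 1 library left out in turn the HCT116 value ran from 0.14 (without hypoxia replicate 2) to 0.61, never past the threshold.

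**Figure D1:**
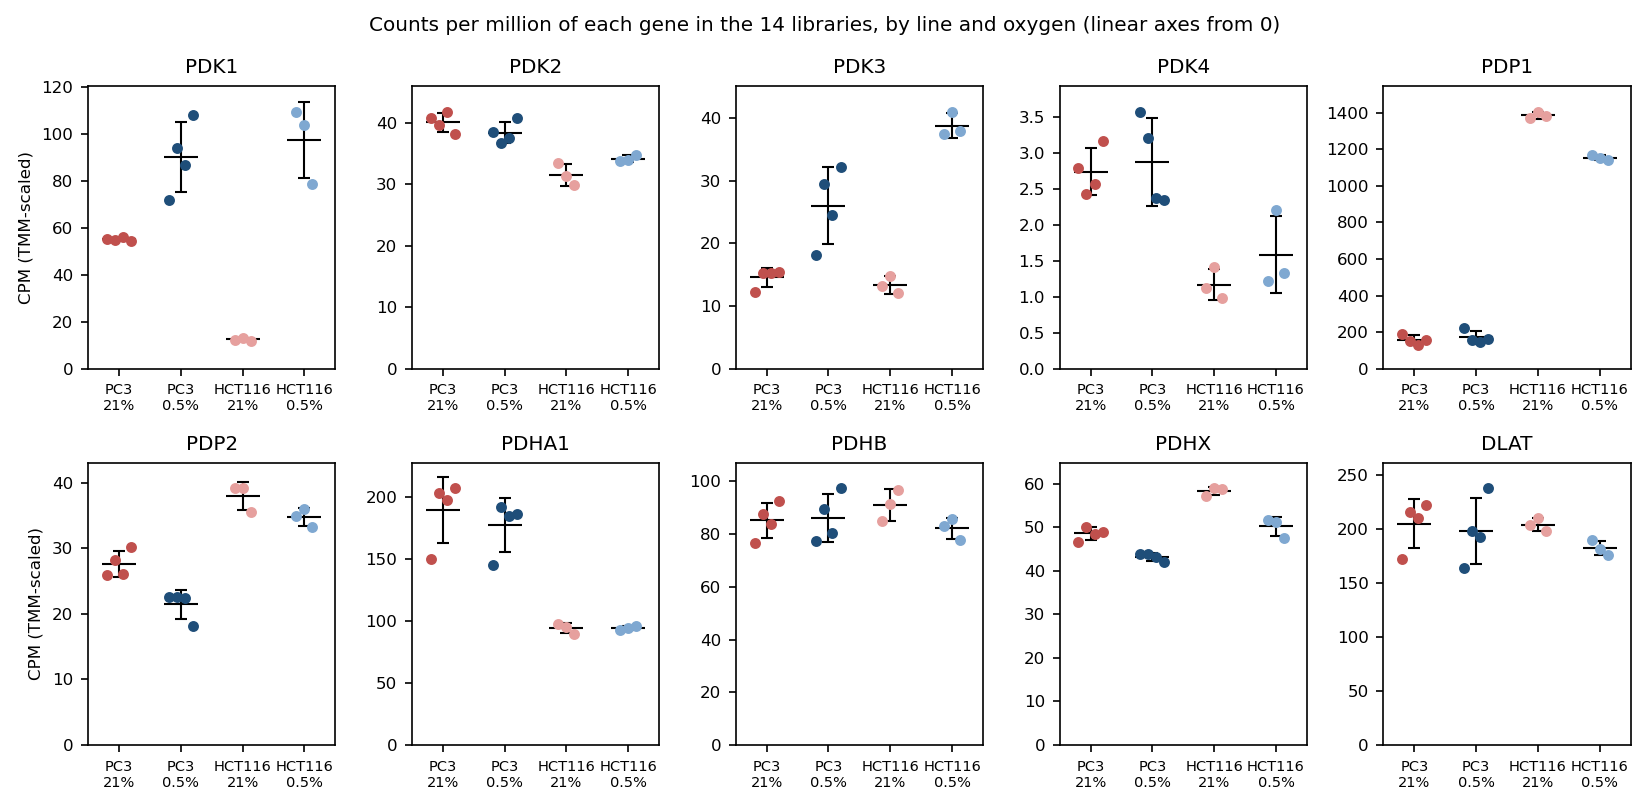
CPM of each of the 10 genes (linear axes from 0) in every library, grouped on the x axis by line and O2 concentration; points are libraries, horizontal marks are group means and bars are 1 SD. PDK1 and PDK3 sit higher at 0.5% O2 in both lines, PDP1 in HCT116 stands between 1143 and 1407 CPM against 130.0 to 221.3 CPM in PC3, and PDHB and DLAT overlap across lines.

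PDP1, the calcium-stimulated phosphatase subunit, fell in HCT116 and did not pass the test in PC3. In HCT116 it went from 1371, 1407 and 1381 CPM to 1169, 1151 and 1143 CPM, with no overlap and with SDs of 18.5 and 12.96 CPM. In PC3 it was at 191.4, 148.7, 130.0 and 157.7 CPM in normoxia and at 221.3, 155.6, 144.0 and 162.0 CPM in hypoxia, which overlap. The log2 fold change was -0.25 in HCT116 (SE 0.06, adjusted p = 0.0112, edgeR) and 0.13 in PC3 (95% interval -0.23 to 0.49, adjusted p = 0.652). In 1 fit over the 14 libraries, where the more variable PC3 libraries share the estimate of spread, the HCT116 value was -0.26 with an adjusted p of 0.272.

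PDP2, the phosphatase subunit that does not depend on calcium, fell in PC3. It was at 25.9, 28.2, 26.1 and 30.3 CPM in normoxia and at 22.6, 22.6, 22.5 and 18.2 CPM in hypoxia, with no overlap. The log2 fold change was -0.36 (SE 0.09, adjusted p = 0.0345, edgeR), a 1.28-fold fall. The call was lost without PC3 normoxia replicate 2, 3 or 4 or PC3 hypoxia replicate 2 or 3 (adjusted p 0.0571 to 0.104), and with libraries left out in turn the value ran from -0.39 to -0.28, the last without PC3 hypoxia replicate 4, where it passed. In HCT116 PDP2 was at 39.2, 39.2 and 35.6 CPM in normoxia and 34.9, 36.0 and 33.3 CPM in hypoxia, which overlap, and it did not pass (log2 -0.11, SE 0.07, adjusted p = 0.253).

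Of the 4 subunits of the complex, PDHX alone passed in the main edgeR fit of a line (TMM scaling, no block), and that was HCT116. In HCT116 PDHX, which anchors DLD to the core, fell from 57.2, 59.0 and 58.8 CPM to 51.7, 51.3 and 47.7 CPM (log2 -0.20, SE 0.06, adjusted p = 0.0427, edgeR). In PC3 it went from 46.8, 50.2, 48.6 and 48.9 CPM to 43.9, 43.9, 43.2 and 42.1 CPM (log2 -0.16, SE 0.05, adjusted p = 0.0838). The conditions did not overlap in either line. With the PC3 replicate numbers as a block, the PC3 value was -0.16 with an adjusted p of 0.0373 (edgeR), past the threshold. Pairing by number was clear only for replicate 1, and 28.5% of all genes passed under the block. By DESeq2 the adjusted p of PDHX in PC3 was 0.0215. PDHX of PC3 passed also in 1 fit over the 14 libraries and under both other scalings that use the library's upper quartile or total. In HCT116 the adjusted p (edgeR) with 1 library left out in turn ran from 0.0488 to 0.127. The call was kept only without hypoxia replicate 1, at the lowest of these values, and was lost in every other such fit. It was also lost with the replicate number as a block, and in 7 of 14 alternatives in all. The PDHX responses of the lines differed by 0.05 (SE 0.08, adjusted p = 0.842, edgeR), so the call is not particular to HCT116.

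PDHA1, which carries the phosphorylated sites of E1, and PDHB, its partner, did not pass in either line. PDHA1 was at 150.2, 202.8, 197.3 and 206.8 CPM in normoxic PC3 and at 145.0, 191.8, 184.8 and 186.4 CPM in hypoxic PC3, where replicate 1 was the lowest in both conditions. In HCT116 it lay between 89.8 and 97.9 CPM in normoxia and between 92.7 and 95.6 CPM in hypoxia. The PDHA1 log2 fold change was -0.09 in PC3 (95% interval -0.35 to 0.17, adjusted p = 0.648, edgeR) and 0.02 in HCT116 (-0.11 to 0.15, adjusted p = 0.842).

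PDHB lay between 76.7 and 92.6 CPM in normoxic and between 77.4 and 97.4 CPM in hypoxic PC3, and between 84.9 and 96.7 CPM and 77.8 and 85.8 CPM in the same conditions of HCT116. Its log2 fold change was 0.02 in PC3 (95% interval -0.17 to 0.21, adjusted p = 0.899, edgeR) and -0.13 in HCT116 (-0.29 to 0.03, adjusted p = 0.215).

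DLAT, the acetyltransferase core, was at 171.6, 215.7, 209.5 and 221.8 CPM in normoxic PC3 and at 163.3, 197.6, 192.6 and 237.5 CPM in hypoxic PC3. In HCT116 it went from 203.2, 209.7 and 197.7 CPM to 189.2, 180.9 and 175.9 CPM, with no overlap. Its log2 fold change was -0.04 in PC3 (95% interval -0.30 to 0.21, adjusted p = 0.837, edgeR) and -0.14 in HCT116 (-0.28 to -0.0050, adjusted p = 0.117). With libraries scaled by total counts alone, which lowers the median over all genes by 0.09 in HCT116 and by 0.10 in PC3 on the log2 scale, DLAT and PDHB of HCT116 (-0.24 and -0.22) and PDHX of PC3 (-0.27) came past the threshold.

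In PC3, then, 3 of the 10 genes passed the test (PDK1 and PDK3 up, PDP2 down) where 11.3% of the 14309 genes tested did (6.03% up, 5.29% down). In HCT116, 4 of the 10 passed (PDK1 and PDK3 up, PDP1 and PDHX down) where 25.9% of 14120 genes did (14.6% up, 11.3% down). Conditions did not overlap for 4 of the 10 genes in PC3, against 20.9% of all genes, and for 6 of the 10 in HCT116, against 42.5%. Of the calls over all genes 53.3% were rises in PC3 and 56.3% in HCT116, against 24.5% and 29.0% with scaling by total counts, and 39.4% in PC3 with upper-quartile scaling; PDK1 and PDK3 rose under each. The median log2 fold change of the 4 kinases was 0.40 in PC3 and 1.01 in HCT116, that of the 2 phosphatases -0.12 and -0.18, and that of the 4 subunits -0.07 and -0.14, while the median over all genes was 0.00 in both lines.

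**Figure D2:**
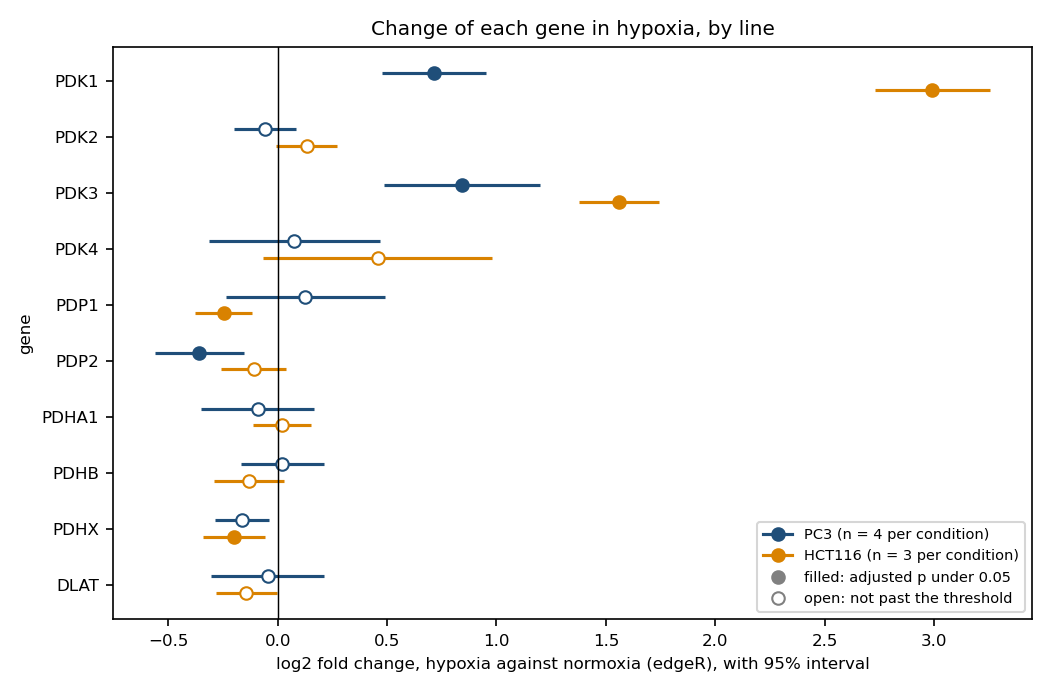
Log2 fold change of hypoxia against normoxia (x axis) for each gene (y axis), with its 95% interval from edgeR, in PC3 (n = 4 per condition) and HCT116 (n = 3 per condition); filled points passed the threshold of 0.05 on the adjusted p. PDK1 (0.72 and 2.99) and PDK3 (0.84 and 1.56) lie to the right of 0 in both lines, and all subunits lie between -0.20 and 0.02.

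Whether the lines responded differently was tested as the PC3 change minus the HCT116 change over all 14 libraries. PDK1 passed, with a difference of -2.26 on the log2 scale (SE 0.18, 95% interval -2.64 to -1.89, adjusted p = 7.16e-06, edgeR), so its rise was 4.79-fold smaller in PC3. It was 1 of the 10 genes to pass, where 2.32% of 15493 genes did, and 5 of the 10 hypoxia check genes also rose less in PC3. For PDK3 the difference was -0.70 (SE 0.22, adjusted p = 0.111, edgeR). With the replicate numbers as a block it was -0.73 (adjusted p = 0.0045) and past the threshold, as it was by DESeq2 (adjusted p = 0.0376) and without PC3 hypoxia replicate 4 (adjusted p = 0.0282) or without replicate 1 of PC3 in both conditions (-0.64, adjusted p = 0.0238). For PDP1, which was higher in hypoxia in 4 of 4 PC3 pairs of the same number and lower in 3 of 3 in HCT116, the difference was 0.39 (SE 0.19, adjusted p = 0.351, edgeR). With the block it was 0.38 (adjusted p = 0.0176). With the block in PC3 alone, a fit chosen after seeing the data, the adjusted p was 0.0042 for PDK3 and 0.0092 for PDP1. Under the block 8.43% of all genes passed. The other 7 genes had differences between -0.37 (PDK4, 95% interval -1.05 to 0.31, and -0.53 to -0.05 with 1 library left out, the last without HCT116 hypoxia replicate 2) and 0.16 (PDHB, -0.10 to 0.43) and did not pass.

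**Figure D3:**
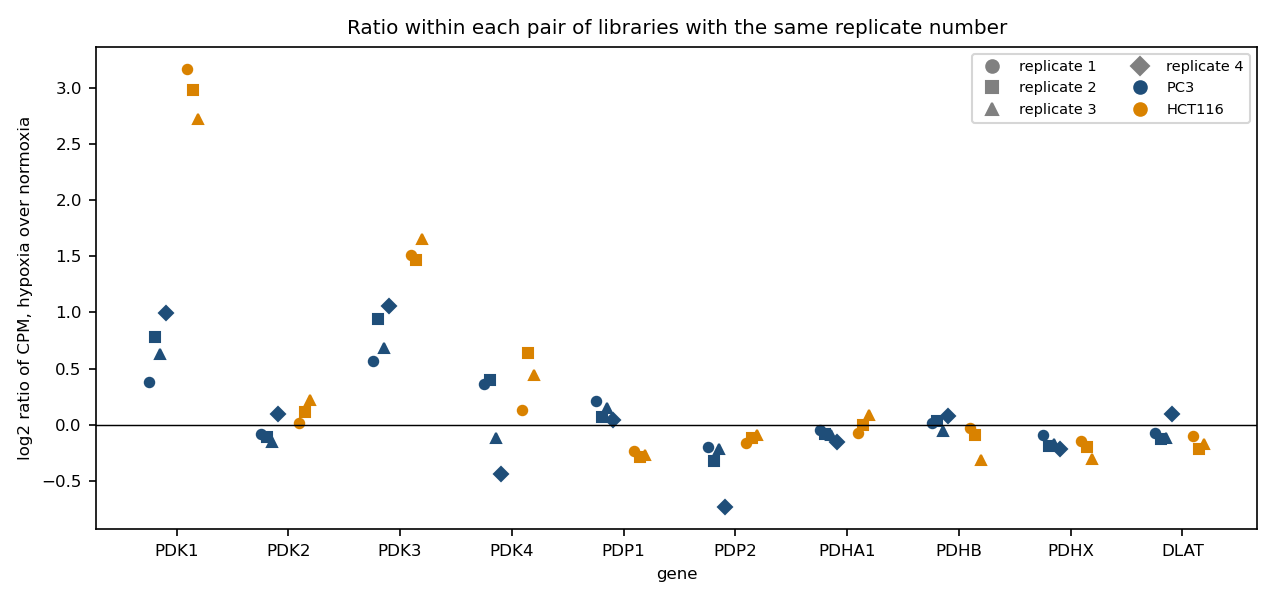
Log2 ratio of CPM, hypoxia over normoxia, within each pair of libraries with the same replicate number (symbols), for each gene on the x axis, in PC3 and HCT116 (colours). PDK1 and PDK3 are above 0 in every pair, PDP1 is above 0 in the 4 PC3 pairs (0.04 to 0.21) and below 0 in the 3 HCT116 pairs (-0.29 to -0.23), and PDP2 and PDHX are below 0 in all 7 pairs.

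The lines also differed in normoxia, before any change of oxygen. Of the 10 genes, 7 passed the test of PC3 against HCT116, where 81.3% of 15493 genes did, so the count itself is near the background. PDK1 was 4.44-fold higher in PC3 (log2 2.15, SE 0.13, adjusted p = 5.40e-10, edgeR), PDK4 2.34-fold higher (1.23, SE 0.23, adjusted p = 0.000156) and PDHA1 2.01-fold higher (1.01, SE 0.11, adjusted p = 6.57e-07). PDK2 was 1.27-fold higher. PDP1 was 8.83-fold lower in PC3 (-3.14, SE 0.14, adjusted p = 1.51e-11, edgeR), PDP2 was 1.37-fold lower and PDHX 1.20-fold lower. PDK3 (0.13, 95% interval -0.20 to 0.46), PDHB (-0.09, -0.28 to 0.09) and DLAT (0.01, -0.22 to 0.24) did not pass.

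In hypoxia 7 of the 10 genes again passed between the lines, where 80.8% of genes did, but PDK1 and PDK3 changed places. PDK1 did not pass in hypoxia (log2 -0.11, 95% interval -0.37 to 0.15, adjusted p = 0.405, edgeR), and the change of its difference is the one tested above. PDK3 was 1.49-fold lower in PC3 than in HCT116 (-0.58, SE 0.15, adjusted p = 0.0025). PDP1 was 6.76-fold lower in PC3, PDP2 1.62-fold lower and PDHX 1.16-fold lower. PDHA1 was 1.88-fold, PDK4 1.81-fold and PDK2 1.12-fold higher. PDHB (0.07) and DLAT (0.12) did not pass, and DLAT did without replicate 1 of PC3 in both conditions (0.20, adjusted p = 0.0255). The PDK2 call was lost under upper-quartile scaling (0.06, adjusted p = 0.400) and without PC3 hypoxia replicate 4, without any 1 hypoxic HCT116 library and in a fit of the hypoxic libraries alone (adjusted p 0.0604 to 0.102).

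Levels of different genes were compared as CPM per kilobase (kb) of merged exons. In PC3 normoxia the order was PDHA1 (38.2 ± 5.3 CPM per kb, SD, n = 4), PDP1 (28.0 ± 4.6), DLAT (27.1 ± 3.0), PDHB (18.1 ± 1.4), PDHX (13.1 ± 0.4), PDK2 (7.34 ± 0.29), PDK1 (3.70 ± 0.05), PDP2 (3.36 ± 0.25), PDK3 (0.83 ± 0.09) and PDK4 (0.60 ± 0.07). The libraries of PDP1 overlapped those of PDHA1 and of DLAT, while PDHA1 and DLAT did not overlap each other, and PDK1 and PDP2 overlapped. In HCT116 normoxia PDP1 came first at 247.4 ± 3.3 CPM per kb (SD, n = 3), 9.18 ± 0.20 times DLAT, the next (27.0 ± 0.8). PDK1 (0.83 ± 0.04) stood eighth there and overlapped PDK3 (0.76 ± 0.08).

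In hypoxia PDK1 rose to 6.06 ± 1.01 CPM per kb in PC3 (SD, n = 4) and 6.55 ± 1.1 in HCT116 (SD, n = 3). In both lines its libraries then overlapped those of PDK2 (7.02 ± 0.32 and 6.25 ± 0.10). PDK3 stayed below them at 1.49 ± 0.35 and 2.22 ± 0.11, and PDK4 was last in all 4 groups. The order of the kinases rests on the length used. PDK3 has 17456 bases of merged exons and 1741 bases in the Ensembl canonical transcript, and PDHB has 4717 and 1507, while PDK1 has 14845 and 14072. By canonical length, an alternative chosen after seeing the data, PDK3 (8.36 ± 0.90 and 14.96 ± 3.5 CPM per kb in normoxic and hypoxic PC3, 7.65 ± 0.81 and 22.3 ± 1.1 in HCT116) lay above PDK1 in every group, and PDHB, PDHA1 and DLAT overlapped at the top in PC3. PDP1 was first in HCT116 and PDK4 last in each group by both lengths.

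The share of PDK2 among the kinase transcripts was lower in hypoxia, and that of PDK1 was higher, in both lines. Per kb of merged exons PDK2 made up 58.8 ± 1.2% of the 4 kinases in normoxic PC3 and 46.4 ± 3.7% in hypoxic PC3 (SD, n = 4), and 75.7 ± 1.7% and 40.8 ± 3.7% in HCT116 (SD, n = 3). PDK1 went from 29.7 ± 0.3% to 39.7 ± 3.1% in PC3 and from 10.9 ± 0.6% to 42.4 ± 4.4% in HCT116. PDK3 went from 6.7 ± 0.7% to 9.7 ± 1.6% and from 10.0 ± 0.8% to 14.5 ± 1.0%. The ranges of PDK1 and PDK2 did not overlap between conditions in either line. By canonical length PDK3 took the largest share in hypoxia, 44.1 ± 4.9% in PC3 and 56.0 ± 1.5% in HCT116, PDK1 rose from 15.7 ± 0.5% to 19.0 ± 0.6% and from 4.8 ± 0.2% to 17.3 ± 2.5%, and PDK2 again fell. PDK4 stayed at 2.3 to 4.8% by merged exons and 1.1 to 3.1% by canonical length. With no length, as shares of the counts, PDK3 was at 12.9 ± 1.3% and 16.4 ± 1.9% in PC3 and at 22.8 ± 1.4% and 22.7 ± 2.1% in HCT116, so its higher share in hypoxic HCT116 rests on weighting by length. These shares are descriptions and were not tested.

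**Figure D4:**
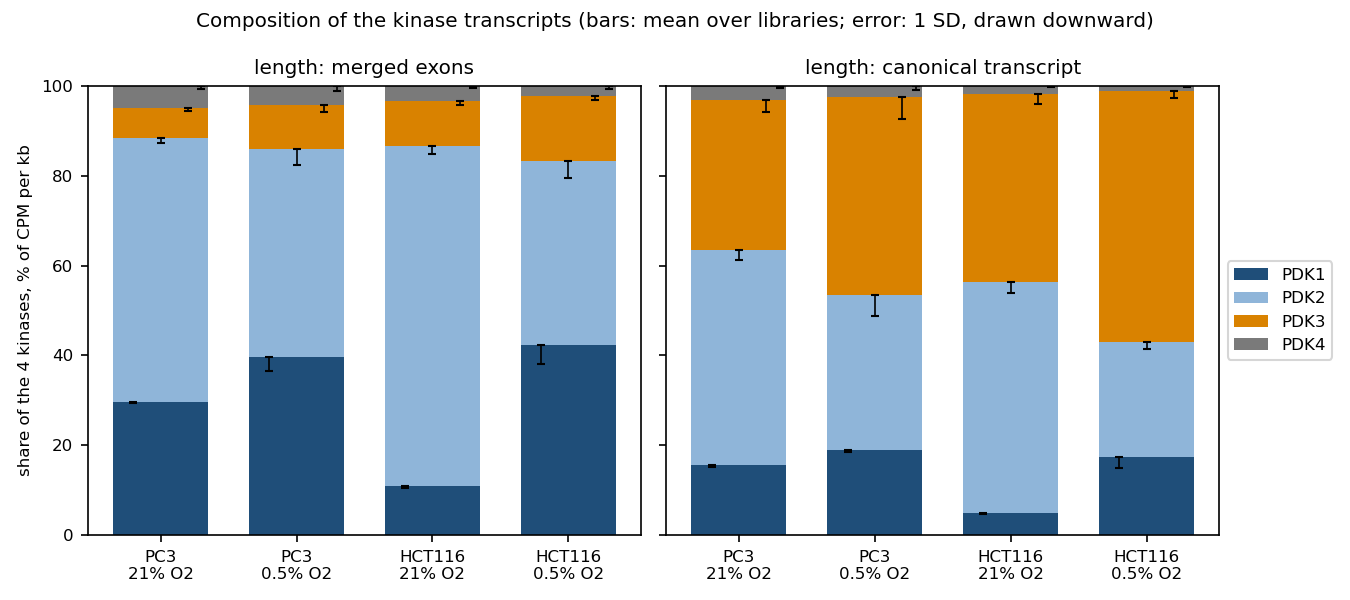
Share of each kinase in the summed CPM per kb of the 4 kinases (y axis, %), by line and O2 concentration (x axis), with merged exons (left) or the canonical transcript (right) as the length; bars are means over 4 (PC3) or 3 (HCT116) libraries and error bars 1 SD, drawn downward. The PDK2 share is lower at 0.5% O2 in every panel, and PDK3 takes 6.7 to 14.5% on the left and 33.4 to 56.0% on the right.

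Summed per kb of merged exons, the kinases went from 12.5 ± 0.3 to 15.2 ± 1.4 CPM per kb in PC3 (SD, n = 4) and from 7.62 ± 0.40 to 15.4 ± 1.1 in HCT116 (SD, n = 3). The phosphatases stood at 31.4 ± 4.6 and 33.1 ± 6.2 in PC3 and at 252.0 ± 3.4 and 210.2 ± 2.4 in HCT116, of which PDP1 made up 89.1 ± 1.6% and 91.9 ± 1.5% in PC3 and 98.2 ± 0.1% and 98.0 ± 0.1% in HCT116. The ratio of kinase to phosphatase transcripts was 0.40 ± 0.06 and 0.47 ± 0.10 in PC3, where the conditions overlapped, and 0.030 ± 0.002 and 0.073 ± 0.005 in HCT116, where they did not. The 4 subunits summed to 96.5 ± 10.0 and 91.8 ± 9.3 in PC3 and to 80.9 ± 1.1 and 74.1 ± 1.9 in HCT116. PDHA1 to PDHB, the partners of E1, stood at 2.11 ± 0.17 and 1.96 ± 0.19 in PC3 and at 0.99 ± 0.11 and 1.09 ± 0.07 in HCT116. By canonical length these last ratios were 1.00 ± 0.08 and 0.93 ± 0.09 in PC3 and 0.47 ± 0.05 and 0.52 ± 0.03 in HCT116, so which partner was higher rests on the length used. The kinase to phosphatase ratios by canonical length were 0.62 ± 0.11 and 0.80 ± 0.20 in PC3, which overlap, and 0.054 ± 0.003 and 0.143 ± 0.006 in HCT116, which do not.

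The genes whose pattern over the 14 libraries was closest to that of each kinase were found by the root mean square (RMS) difference of log2 CPM, each gene centred on the mean of its 4 group means, among 10862 genes with at least 1 CPM in every library. PDK1 itself lay 0.16, 0.86, -1.99 and 0.97 from its centre in PC3 normoxia, PC3 hypoxia, HCT116 normoxia and HCT116 hypoxia. The nearest gene, BNIP3L, which encodes a mitophagy receptor, lay at -0.07, 0.89, -2.03 and 1.21 (RMS difference 0.23). Next came BHLHE40, a transcriptional repressor (0.43), and HK2, the hexokinase that starts glycolysis (0.44). Nearest to PDK3 were RAB20 (0.15), ZNF395 (0.16) and FAM162A (0.17), nearest to PDK2 were ABCB10, UBE3C and SMARCAL1 (0.06 each), and nearest to PDK4 were ZNF250 (0.19), PPL (0.20) and CHD6 (0.21). The PDK2 values are small because PDK2 varied little, with an RMS of 0.15 around its own centre against 1.14 for PDK1, 0.64 for PDK3 and 0.60 for PDK4.

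The genes lie apart from one another in GRCh37, by the GENCODE annotation: PDK1 at chr2:173420101-173473397, PDK2 at chr17:48172101-48189516, PDK3 at chrX:24483361-24568583, PDK4 at chr7:95212811-95225828, PDP1 at chr8:94870035-94938296, PDP2 at chr16:66912492-66929657, PDHA1 at chrX:19362011-19379836, PDHB at chr3:58413357-58419584, PDHX at chr11:34937376-35042138 and DLAT at chr11:111896132-111935128. All are protein coding and PDK4 and PDHB are on the minus strand. Exons of a counted gene on the other strand covered 38.6% of the merged exon bases of PDK2 (SAMD14), 19.3% of PDHA1 (MAP3K15), 13.3% of DLAT (PIH1D2) and 4.09% of PDHX (APIP). Whether the counting used strand is not given in the sources used here, so reads there cannot be assigned with certainty. SAMD14, MAP3K15 and PIH1D2 averaged at most 5.52 CPM in any group, against at least 31.6 CPM for the members they overlap, while APIP was at 31.9 to 53.6 CPM, near the level of PDHX, and it fell in HCT116 as PDHX did (log2 -0.39, SE 0.10, adjusted p = 0.0139, edgeR; -0.21 in PC3, adjusted p = 0.224). The part of APIP reads in the PDHX values was not tested.

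The nearest counted neighbour of PDK1 upstream, ITGA6, 48914 bases away, did not pass for hypoxia in either line (log2 0.32 in PC3 and 0.18 in HCT116, adjusted p = 0.126 and 0.0679, edgeR). Between the lines in normoxia ITGA6 was higher in PC3, as PDK1 was (log2 1.03, SE 0.12, adjusted p = 1.25e-06, edgeR). RAPGEF4, downstream of PDK1, was higher in PC3 too (4.19, SE 0.59), but averaged at most 0.48 CPM in any group. TMEM67, 38573 bases upstream of PDP1, was also lower in PC3 than in HCT116 in normoxia (log2 -1.17, SE 0.11), by less than PDP1 (-3.14). So was RBM12B, 116790 bases upstream (-0.33, SE 0.10), in a comparison that 81.3% of all genes passed. In hypoxia TMEM67 fell in HCT116 (-0.30, adjusted p = 0.0066, edgeR), as PDP1 did, and in PC3 (-0.49, adjusted p = 0.0361). RBM12B fell in PC3 (-0.40, adjusted p = 0.0395, edgeR) and did not pass in HCT116 (-0.01, adjusted p = 0.907).

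The genes around the complex were taken as lists, and their counts stand beside the 11.3% (PC3) and 25.9% (HCT116) of all genes that passed. Of the complex's 2 measured partners, DLD and PDPR (a regulatory subunit of the PDP1 phosphatase), neither passed in PC3 by edgeR or DESeq2 (1 had an unadjusted p under 0.05), and PDPR rose in HCT116 (log2 0.25, SE 0.08, adjusted p = 0.0301, edgeR). PDHA2, the testis form of E1, had at most 1 read in any library. Of 14 TCA cycle genes none passed in PC3 by edgeR (1 had an unadjusted p under 0.05, and 1 passed by DESeq2), and in HCT116 SDHA, of succinate dehydrogenase, rose (0.23, SE 0.06, adjusted p = 0.0205) and IDH3A, of isocitrate dehydrogenase, fell (-0.35, SE 0.06, adjusted p = 0.0028). Of 3 genes that make or attach the lipoyl group DLAT needs, 2 fell in PC3, among them LIPT1 (-0.51, SE 0.10, adjusted p = 0.0136), and none passed in HCT116 by edgeR or DESeq2 (2 had an unadjusted p under 0.05). The median log2 fold change was 0.04 in PC3 and -0.05 in HCT116 for the TCA cycle, -0.47 and -0.18 for lipoylation, and -0.05 and 0.04 for the partners, against 0.00 over all genes.

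Of 8 genes of pyruvate entry and of its other fates, 2 rose in PC3, and 2 rose and 2 fell in HCT116. LDHA, the lactate dehydrogenase subunit that draws pyruvate to lactate, rose by 0.85 in PC3 (log2, SE 0.11, adjusted p = 0.0023, edgeR) and by 1.66 in HCT116 (SE 0.07, adjusted p = 4.22e-08), and like PDK1 it rose less in PC3 by the test of the difference (-0.80, SE 0.15, adjusted p = 0.0125). MPC1, a subunit of the mitochondrial pyruvate carrier, fell in HCT116 (-0.34, SE 0.10, adjusted p = 0.0357). Of 9 genes of the related 2-oxo acid complexes none passed in PC3 by edgeR (1 had an unadjusted p under 0.05, and 1 passed by DESeq2), and 3 rose and 1 fell in HCT116. BCKDHA, the branched-chain counterpart of PDHA1, rose by 1.02 (SE 0.09, adjusted p = 1.66e-05), and PPM1K, the phosphatase of that complex, fell (-0.51, SE 0.17, adjusted p = 0.0464). The median was 0.13 in PC3 and -0.07 in HCT116 for the pyruvate genes, and 0.07 and 0.06 for the related complexes.

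Genes known to control PDK4 and to share its control were looked at beside its low level. Of 10 listed regulators, 8 were tested in PC3 and 9 in HCT116. In PC3 2 rose, with PPARD, a fatty acid receptor, from 72.5 ± 5.6 to 136.3 ± 3.2 CPM (SD, n = 4; log2 0.91, SE 0.07, adjusted p = 0.000152, edgeR). In HCT116 2 rose and 1 fell. There FOXO3 rose by 0.72 (SE 0.07, adjusted p = 3.59e-05), KLF15 fell at a low level, from 1.45 ± 0.01 to 0.90 ± 0.20 CPM (SD, n = 3; adjusted p = 0.0232, edgeR), and PPARD did not pass (0.08, SE 0.06, adjusted p = 0.376). The PPARD response differed between the lines by 0.85 (SE 0.09, adjusted p = 0.000149, edgeR). PPARGC1A, the coactivator PGC-1 alpha, had at most 4 reads in any library. The median of the regulators was 0.19 in PC3 and -0.04 in HCT116. Of 15 fat oxidation genes and other PPAR targets, 13 were tested in each line. In PC3 2 rose and 1 fell, and in HCT116 3 rose and 2 fell. ANGPTL4, a secreted lipase inhibitor, rose in both (3.38, SE 0.35, adjusted p = 0.000739, and 4.63, SE 0.17, adjusted p = 1.63e-08, edgeR), ACADM fell in both (-0.22, SE 0.06, adjusted p = 0.0401, and -0.21, SE 0.07, adjusted p = 0.0406), and CPT1B fell in HCT116 (-0.52, SE 0.12, adjusted p = 0.0075). The median of that list was -0.02 in both lines.

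Several of these list genes passed narrowly. With 1 library left out in turn, the highest adjusted p (edgeR) was 0.126 for PDPR, 0.0682 for SDHA, 0.135 for MPC1, 0.168 for PPM1K and 0.0808 for KLF15 in HCT116, and 0.123 for ACADM and 0.0607 for LIPT1 in PC3, each past the threshold in some of these fits and not in others. LDHA, BCKDHA, IDH3A, FOXO3, CPT1B, PPARD and ANGPTL4 passed in all of them in the lines where they are reported.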

How the data were processed

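Per the labels and the study's methods, the authors aligned polyadenylated RNA-seq reads to GRCh37 with HISAT2 (2.05) after setting aside those of the ERCC spike-ins, and deposited read counts per RefSeq gene from HTSeq (0.5.4p3, intersection-strict mode), not normalised. The RefSeq release and strand setting are not given in the sources used here. The ERCC reads were not analysed here, and all changes are relative to the other transcripts. The members, gene lists and rule for naming genes were chosen with earlier results of these data known. The rule names all members, the largest rise and fall past the threshold of each list in each line, and the 3 genes nearest each kinase.

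Counts were tested with edgeR (4.0.16, in R 4.3.3): filterByExpr, TMM, two-sided quasi-likelihood test, and Benjamini-Hochberg adjustment over all genes tested, with a threshold of 0.05. Each line was fitted alone for oxygen, and all 14 libraries together for lines and for the difference of responses. The scripts were tested on simulated data. CPM are TMM-scaled over the 14 libraries, and log2 CPM used a prior count of 2. Lengths are merged GENCODE exons. Alternatives were other scalings, filters, DESeq2 (1.42.0), libraries left out, fits over other libraries, other lengths and the replicate number as a block. PC3 libraries of the same number deviated together (correlations 0.692, 0.280, 0.152 and 0.295 across genes), and those of unlike numbers ran from -0.436 to 0.210. Each PC3 library was closest to its own number, but by a wide margin only for replicate 1. Hypoxia replicate 3 was almost as close to normoxia replicate 2 (0.146) as to normoxia replicate 3. Pairing by number is therefore not certain. The study names its replicates biological, and p-values measure the spread between these libraries. No 2 replicates were the same library deposited again, with a chi-square of at least 12.5 per gene between any pair.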

Additional observations from a re-analysis of the deposited data

Results flagged for a closer look

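In 4 cases a single library lay farther from the rest of their group than Dixon's limit, of 20 groups of 4 PC3 libraries looked at, where chance gives about 1 in 20. PC3 replicate 1 was low for PDHA1 in both conditions, at 150.2 CPM in normoxia and 145.0 CPM in hypoxia, and low for PDK3 in normoxia, at 12.2 CPM. PC3 hypoxia replicate 4 was low for PDP2, at 18.2 CPM, and without it the fall of PDP2 kept its direction.

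The response of PDK1 differed between the lines, with a PC3 change 2.26 lower than that of HCT116 on the log2 scale (-2.26). For PDP1 the same-numbered libraries moved up in PC3 and down in HCT116. The difference of the responses, 0.39, did not pass in edgeR without the block and passed with it, as given above.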

How the results depend on the processing

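PDK1 and PDK3 kept their rise and their side of the threshold in both lines under every alternative run. Over the 10 genes and 5 comparisons, 941 of 1000 alternative values kept direction and side, 19 lost the call, 15 gained it and 25 changed sign. In PC3, PDHB changed sign under upper-quartile scaling (-0.022) and total-count scaling (-0.087), and PDK4 under total-count scaling (-0.027) and without PC3 replicate 1 in both conditions (-0.040). PDHA1 of HCT116 changed sign under total-count scaling (-0.074). Between the lines, DLAT in normoxia changed sign under upper-quartile scaling (-0.055), with the replicate block (-0.063) and over only the libraries of that oxygen condition (-0.013), and PDHB in hypoxia under upper-quartile scaling (-0.041). None of these genes passed the threshold in the comparison concerned.

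Leaving out 1 library at a time gave, for PC3 in hypoxia, -0.037 to 0.065 for PDHB, -0.056 to 0.17 for PDK4, -0.033 to 0.25 for PDP1 and -0.14 to 0.031 for DLAT. For PDHA1 of HCT116 it gave -0.020 to 0.035. Between the lines it gave -0.031 to 0.085 for DLAT in normoxia, and in hypoxia -0.016 to 0.12 for PDHB and -0.0015 to 0.20 for DLAT.

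Of all genes, 1620 passed in PC3, against 4074 with the replicate block, 2465 in 1 fit over the 14 libraries, 2601 by DESeq2 and 553 to 2085 with 1 library left out (the low values came without PC3 normoxia replicate 2, 3 or 4, or hypoxia replicate 2, and the count was 1783 without replicate 1 in both conditions). In HCT116, 3658 passed, against 1733 in the fit over 14 libraries. For the difference of responses 359 passed, against 1306 with the block, 1270 with the block in PC3 alone, 974 by DESeq2 and 177 to 717 with 1 library left out (717 without PC3 hypoxia replicate 4, and 177 to 233 without PC3 normoxia or hypoxia replicate 2, PC3 normoxia replicate 3, or any HCT116 library but hypoxia replicate 1). Of the 10 genes, 1 passed there, against 3 with either block, 2 by DESeq2 and without PC3 replicate 1, and 1 to 2 with 1 library left out. The cause was not tested. Of the calls on the difference 43.5% were higher in PC3, and 29.3% were under upper-quartile scaling.

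HCT116 libraries of the same number were each closest to their own number, but weakly (correlations 0.092, 0.152 and 0.035, against -0.102 to 0.009 for unlike numbers). Whether the HCT116 numbers mark pairs is not settled. With that number as a block the HCT116 call of PDHX was lost (adjusted p = 0.0568, edgeR). Apart from that and the values given in the report, the block changed no call of the 10 genes.

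The share of PDK1 among the kinases was 22.0, 30.8, 7.57 and 33.5% (normoxic and hypoxic PC3, then HCT116) by longest transcript, 48.9, 57.0, 21.2 and 56.3% with no length, and 15.7, 19.0, 4.83 and 17.3% by canonical transcript. Depth limited PDK4 most, with 131 to 382 reads per library.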
